A study of Mus musculus with 4 samples.

Results

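The genes described here are 10 genes of the oligodendrocyte lineage, followed in hippocampal RNA of conditional Atp6ap2 mutant and wild-type mice. They were chosen by name, among 23466 gene symbols in the deposited table, and where a gene had several transcript records the one with the highest mean over the 4 libraries stood for it. All 10 had signal in every library and passed the filter on low values, so that 10 of 18127 tested genes are under description. The 4 libraries came from frozen hippocampus at postnatal day 30 on the C57BL/6N strain. The 2 mutant libraries, 38 and 39, carried the genotype Atp6ap2 Camk2aCre/0 (titled ko, and called conditional het in their condition field), and the 2 wild-type libraries, 11 and 73, are labelled wt with no statement on floxed alleles or Cre. Camk2a-Cre is a recombinase driven by a promoter of forebrain excitatory neurons, so the cells named by the driver are not oligodendrocytes or their precursors. The labels do not say how the samples map to animals, so each p-value measures the spread between these samples, which may be technical.

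Oligodendrocyte precursors are proliferating glia spread through the grey and white matter of the adult brain. They respond to platelet-derived growth factor through Pdgfra, pass through a committed, premyelinating stage marked by Gpr17, and end as oligodendrocytes that wrap axons in myelin. The basic helix-loop-helix factors Olig1 and Olig2 and the high-mobility-group factor Sox10 act through much of this course, and in the hippocampus, where much of the tissue is grey matter, precursors go on making new oligodendrocytes after weaning.

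Atp6ap2, the targeted gene, had 2312 in wild-type 11, 2637 in wild-type 73, 2551 in mutant 38 and 2522 in mutant 39, in scaled read equivalents (deposited scaled bases divided by the 42 bases that 1 read contributed). It was not lower in the libraries labelled mutant, with a log2 fold change of 0.04 ± 0.10 (SE, n = 2 per group). The record sums the transcript over all cells of the tissue, exons outside any deleted part included, so each direction below rests on the labels, and mutant means a library labelled so. Depth was lowest in wild-type 73, with 10023033 read equivalents before scaling, and highest in wild-type 11, with 18339838. The 14 choroid plexus markers summed to 48861 in wild-type 11 and 81764 in mutant 38, against 3704 in wild-type 73 and 2833 in mutant 39. The 8 thalamic markers summed to 2100 in wild-type 11, 1796 in wild-type 73, 5197 in mutant 38 and 2571 in mutant 39, and 3 of them, Slc17a6, Rora and Plekhg1, were higher in both mutants. All 10 hippocampal neuron markers were present in every library, with sums between 38135 and 44011 of which Camk2a made up the largest share. Of these markers, 1 was higher (Man1a, a log2 fold change of 0.32 ± 0.15) and 2 lower in both mutants, and 7 overlapped. Over all tested genes 16.8% were higher and 16.5% lower in both mutants. Fibcd1, a marker of CA1 neurons, had 2243 in wild-type 11, 2299 in wild-type 73, 1392 in mutant 38 and 1600 in mutant 39, a log2 fold change of -0.60 ± 0.11 (SE, n = 2 per group; limma unadjusted p = 0.000784, adjusted p = 0.420). C1ql2, a marker of dentate granule cells, had -0.33 ± 0.12 (limma unadjusted p = 0.0298, adjusted p = 0.989).

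Of the 10 genes, 0 passed limma's test after Benjamini-Hochberg adjustment over all genes. In the background 1 of 18127 genes, or 0.00552%, did so, namely Apold1. At an unadjusted p below 0.05 there were 3 genes higher (Olig2, Olig1 and Enpp6) and 1 lower (Gpr17), against 2.18% of all tested genes in the higher and 1.75% in the lower direction. Both mutants lay above both wild-types for 3 genes, against 16.8% of tested genes, and below them for 2 (Gpr17 and Neu4), against 16.5%. Of the authors' p-values in the deposited table, 3 of the 10 were below 0.05 (Olig2, Olig1 and Gpr17), against 2.15% of the records kept for the tested genes. In whole tissue a change in the number of cells of a type and a change in RNA per cell cannot be told apart. Because the genes were picked with earlier results in view, the counts describe them and no more.

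The 250 bases before the start of the genes whose groups did not overlap are shown where the RefSeq promoter table holds an entry, since these are the genes that separated the groups. The table matched 7 of the 10 genes, and held no entry for Olig1, Gpr17 and Sox10. The sequences are RefSeq's, on build GRCm38.p6, which is not the build of the deposited table. Capitals mark the E-box CANNTG, the motif bound by basic helix-loop-helix factors such as Olig2, and the Sox core, searched as ACAAAG or ACAATG. Both were searched on both strands, and no motif overlapped the other in these windows.
Olig2, chr16:91225300-91225549, plus strand: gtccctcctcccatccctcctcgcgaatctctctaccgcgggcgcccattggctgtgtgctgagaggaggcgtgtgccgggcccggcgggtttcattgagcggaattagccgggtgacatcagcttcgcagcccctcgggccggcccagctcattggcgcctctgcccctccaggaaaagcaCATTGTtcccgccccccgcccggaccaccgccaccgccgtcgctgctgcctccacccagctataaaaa
Enpp6, chr8:46986637-46986886, plus strand: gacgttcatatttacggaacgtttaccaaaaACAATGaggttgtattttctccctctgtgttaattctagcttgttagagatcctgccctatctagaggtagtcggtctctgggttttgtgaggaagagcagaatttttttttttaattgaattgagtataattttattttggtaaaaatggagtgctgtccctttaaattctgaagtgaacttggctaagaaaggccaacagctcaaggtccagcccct
Neu4, chr1:94020243-94020492, plus strand: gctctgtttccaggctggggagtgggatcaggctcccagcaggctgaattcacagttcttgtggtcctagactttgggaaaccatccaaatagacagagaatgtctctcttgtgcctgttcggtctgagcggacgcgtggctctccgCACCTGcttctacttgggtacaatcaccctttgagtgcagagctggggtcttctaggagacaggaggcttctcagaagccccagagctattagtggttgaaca

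The windows of Olig2 and Enpp6, both higher in the mutants, each held 1 Sox core and 0 E-boxes. That of Neu4, lower in the mutants, held 1 E-box (CACCTG) and 0 Sox cores. Among all 32851 windows of this length, 66.2% held an E-box and 25.2% a Sox core. Among the other genes, the Bmp4 window held 3 E-boxes, that of Lhfpl3 2, that of Pdgfra 1 and that of Cspg4 0. Each of these windows held 0 Sox cores. These are matches of letters in few windows and say nothing on binding or on the direction of a gene.

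Values of single genes below are scaled read equivalents. Levels between genes were compared only per kilobase (kb), with the length of the GENCODE M21 transcript of the same RefSeq accession, which may differ from the model the authors used. On this scale Olig1 was the highest in each of the 4 libraries, between 658 and 921 per kb. Gpr17, Olig2, Sox10 and Pdgfra formed a second tier between 168.5 and 291 per kb. Lhfpl3 (81.3 to 138) and Cspg4 (72.8 to 83.6) followed, with overlapping wild-type values, and Neu4, Enpp6 and Bmp4 lay between 15.9 and 51.4.

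The order of neighbouring genes was not the same in the groups. In wild-type, Gpr17 (257 ± 23.3 per kb, SD, n = 2) stood above Olig2 (197 ± 5.28), and in the mutants Olig2 (283 ± 11.4) stood above Gpr17 (209 ± 9.19). Neu4 (40.9 ± 3.89) was above Enpp6 (30.5 ± 8.39) in wild-type, with 38.1 as its lower value against 36.4 as the higher value of Enpp6. Without division by length these wild-type values overlapped, at 197 and 172 for Neu4 and 181 and 122 for Enpp6. Their wild-type order thus rests on the lengths used. Counting error also reached 9.53% of the level for Neu4 and 11.3% for Enpp6. In the mutants Enpp6 (45.5 ± 8.33) was above Neu4 (32.2 ± 2.88, SD, n = 2). Olig2, Sox10 and Pdgfra were within each other's spread in wild-type.

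**Figure D1:**
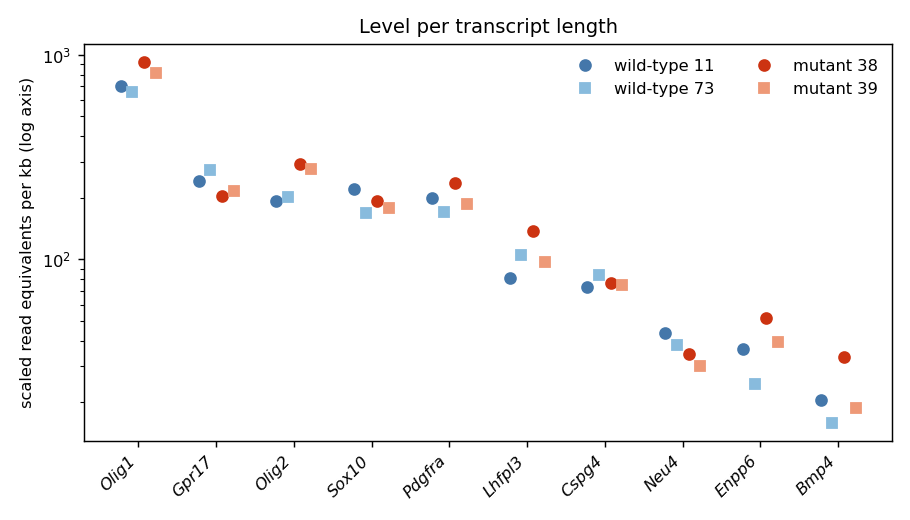
Level of each gene per kb of transcript, in scaled read equivalents on a log axis, with 1 point per library and the genes ordered by their wild-type mean. Olig1 lies on top in every library, between 658 and 921, and the points of Olig2 and of Enpp6 lie higher in the mutants while those of Gpr17 and Neu4 lie lower.

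Among the lineage transcription factors, Olig2, needed to specify the lineage, showed the clearest separation of the 10. Its record (NM_016967) had 488 scaled read equivalents in wild-type 11, 507 in wild-type 73, 735 in mutant 38 and 695 in mutant 39. Both mutants were above both wild-types, and the lower mutant exceeded the higher wild-type by 36.9%. The log2 fold change came to 0.52 ± 0.11 (SE, 2 libraries per group; 95% interval 0.26 to 0.78), a 1.43-fold difference. The unadjusted limma p was 0.00233, the 55th smallest of all tested genes, and the adjusted p was 0.755. The authors' deposited table gives Olig2 a p of 0.00254. Before scaling these levels rested on 325 to 871 read equivalents, a counting error of 3.39% to 5.55%, while the 2 libraries of a group differed by a coefficient of variation of 2.68% in wild-type and 4.02% in mutant.

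Olig1, the sister factor that promotes maturation and myelination, went the same way with a smaller difference. It had 1523 in wild-type 11, 1423 in wild-type 73, 1991 in mutant 38 and 1769 in mutant 39. The groups did not overlap, and the nearest libraries were 16.1% apart. The log2 fold change came to 0.35 ± 0.11 (SE, 2 libraries per group; 95% interval 0.10 to 0.60), with an unadjusted limma p of 0.0135 and an adjusted p of 0.989. In GENCODE M21, 7.26% of the exonic bases of Olig1 are shared with a long non-coding RNA on the opposite strand, and those of Olig2 with no gene. Whether the counting used strand is not given in the sources used here.

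Olig1 and Olig2 are neighbours among the protein-coding genes of RefSeq GRCm38.p6. The protein-coding genes on either side, looked up after the values of the pair had been seen, were 4932438H23Rik, at 60.3 in wild-type 11, 21.7 in wild-type 73, 93.6 in mutant 38 and 29.6 in mutant 39, and Ifnar2, an interferon receptor chain. Ifnar2 had 299.6 in wild-type 11, 263 in wild-type 73, 257 in mutant 38 and 238 in mutant 39. The groups of the first gene overlapped and those of the second did not, with Ifnar2 lower at -0.18 ± 0.15 (SE, n = 2 per group).

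Sox10, the factor that activates myelin genes together with Olig partners and is present from precursor to mature cell, had 598 in wild-type 11, 457 in wild-type 73, 521 in mutant 38 and 482 in mutant 39. Both mutants lay between the wild-types. Its log2 fold change came to -0.06 ± 0.16 (SE, 2 libraries per group; 95% interval -0.43 to 0.31; limma adjusted p = 0.991). Its groups overlapped where those of Olig1 and Olig2 did not, and the difference between Olig2 and Sox10 was examined as a ratio. The log2 ratio of Olig2 to Sox10 was -0.29 in wild-type 11, 0.15 in wild-type 73, 0.50 in mutant 38 and 0.53 in mutant 39. It was higher in both mutants, with a two-sided exact permutation p of 0.333, the smallest that 2 against 2 libraries allow. The difference between groups in the ratio of Olig2 to Olig1 was smaller, at 0.17 on the log2 scale, with 6 such ratios computed in all, chosen after the values had been seen.

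**Figure D2:**
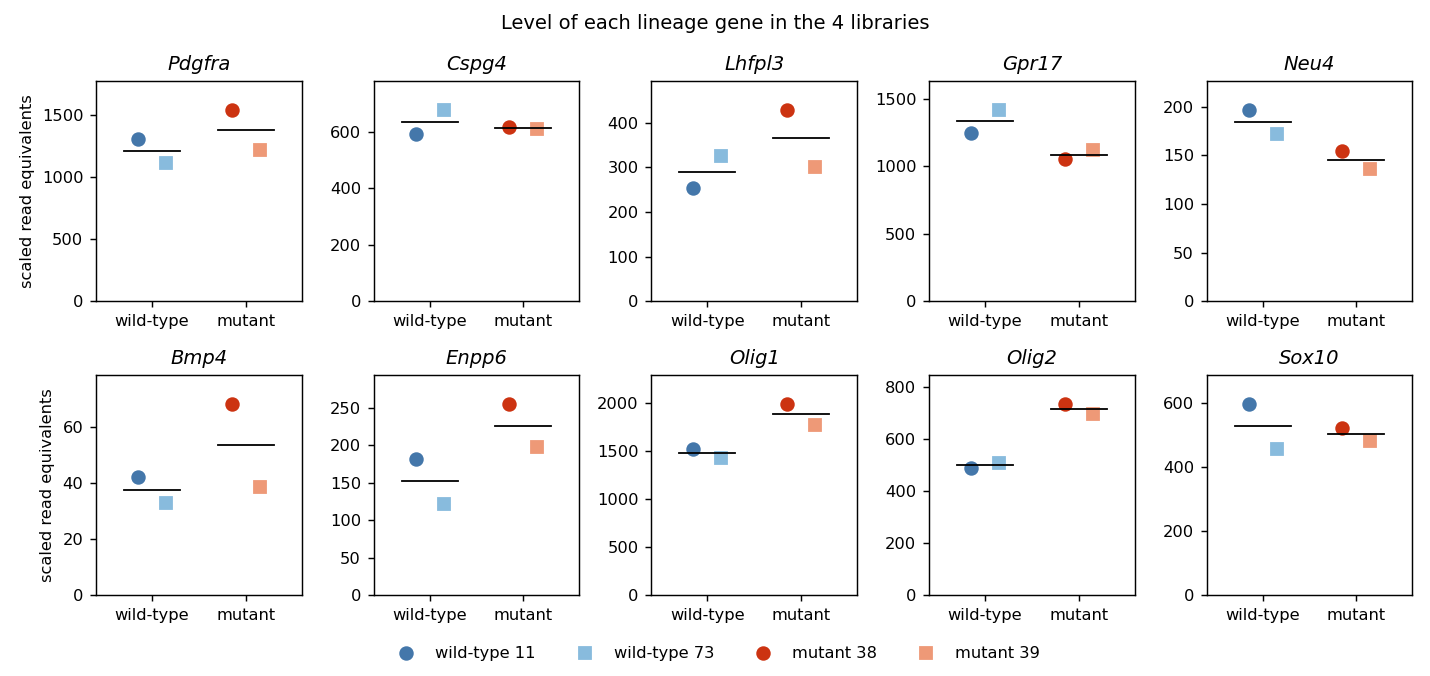
Scaled read equivalents of each of the 10 genes in the 4 libraries, on linear axes that start at 0, with a bar at each group's mean. Olig2 is at 488 and 507 in wild-type and 735 and 695 in mutant, Gpr17 and Neu4 are lower in both mutants, and Pdgfra, Cspg4, Lhfpl3, Bmp4 and Sox10 overlap.

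The genes of the surface proteins that define precursors had overlapping groups. Pdgfra, the receptor for the growth factor that keeps precursors dividing, had 1310 in wild-type 11, 1113 in wild-type 73, 1543 in mutant 38 and 1218 in mutant 39. Mutant 39 lay between the wild-types and mutant 38 above both. The log2 fold change came to 0.18 ± 0.15 (SE, 2 libraries per group; 95% interval -0.16 to 0.53; limma adjusted p = 0.989). Its other transcript record gave 0.18 as well, and 6.50% of its exonic bases in GENCODE M21 are shared with other genes, nearly all on the opposite strand.

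Cspg4, the NG2 proteoglycan, had 591 in wild-type 11, 679 in wild-type 73, 618 in mutant 38 and 611 in mutant 39, both mutants lying between the wild-types. The log2 fold change came to -0.04 ± 0.12 (SE, 2 libraries per group; 95% interval -0.33 to 0.24; limma adjusted p = 0.991). Lhfpl3, a tetraspan membrane protein enriched in precursors, had 253 in wild-type 11, 325 in wild-type 73, 429 in mutant 38 and 301 in mutant 39, so that mutant 38 alone was above both wild-types. It had a log2 fold change of 0.32 ± 0.21 (SE, 2 libraries per group; 95% interval -0.18 to 0.82; limma adjusted p = 0.989), and its second record gave 0.33. In GENCODE M21, 17.6% of its exonic bases are shared with a long intergenic RNA on the other strand.

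Pdgfra is also made by fibroblasts and Cspg4 by pericytes, so the markers of these cells are given beside them. Of 10 fibroblast and meningeal genes, 0 were higher and 2 lower in both mutants, the matrix proteoglycan gene Dcn and the prostaglandin synthase gene Ptgds, with a median log2 fold change of -0.17. Their summed level was 15365 in wild-type 11, 13317 in wild-type 73, 12178 in mutant 38 and 9648 in mutant 39. Ptgds made up most of each sum, at 11041, 10441, 7593 and 7851 in the same order, so the sums mostly follow that gene. Which cells made the RNA of Ptgds, or of the other genes on the list, was not tested. The groups of 8 of the 10 genes overlapped. Of 10 pericyte and mural genes, 3 were higher and 2 lower in both mutants, with a median of 0.13. The sum was 3215 in wild-type 11, 2937 in wild-type 73, 3558 in mutant 38 and 2891 in mutant 39. Over all tested genes 16.8% were higher and 16.5% lower in both mutants. The part of fibroblasts and pericytes in the levels of Pdgfra and Cspg4 was not tested.

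Gpr17 and Neu4, both of the committed, premyelinating stage, were lower in both mutants. Of 18 other genes of committed and newly formed cells, described further on, 8 were higher in both and 2 lower. Over all tested genes these shares were 16.8% and 16.5%. Gpr17, a G protein-coupled receptor that peaks in committed precursors and holds back maturation, had 1248 in wild-type 11, 1419 in wild-type 73, 1053 in mutant 38 and 1120 in mutant 39. Both mutants were below both wild-types, by 10.2% between the nearest libraries. The log2 fold change came to -0.29 ± 0.11 (SE, 2 libraries per group; 95% interval -0.55 to -0.03), a ratio of 0.816. The unadjusted limma p was 0.0329, and the adjusted p was 0.989. In GENCODE M21, 3.62% of the exonic bases of Gpr17 are shared with Lims2 on the opposite strand. For Gpr17 the authors' deposited table holds a p of 0.0436.

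Neu4, a sialidase of the committed stage, had 197 in wild-type 11, 172 in wild-type 73, 154 in mutant 38 and 136 in mutant 39. It too was lower in both mutants, by 10.2% between the nearest libraries. Its log2 fold change came to -0.34 ± 0.18 (SE, 2 libraries per group; 95% interval -0.77 to 0.08), with an unadjusted limma p of 0.0993 and an adjusted p of 0.989. The mutant level was 0.789 times that of wild-type, and the counting error of Neu4 was 6.52% to 9.53% of its level in a library.

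Bmp4, a ligand of the bone morphogenetic protein family that committed precursors make and that restrains their maturation, had the fewest reads of the 10. It had 42.3 in wild-type 11, 32.8 in wild-type 73, 68.3 in mutant 38 and 38.7 in mutant 39, with mutant 38 alone above both wild-types. Before scaling these were 21 to 81 read equivalents, a counting error of 11.1% to 21.8%. Its log2 fold change came to 0.46 ± 0.36 (SE, 2 libraries per group; 95% interval -0.39 to 1.30; limma adjusted p = 0.989), an interval on both sides of 0. The mutants differed by a coefficient of variation of 39.1%, above the counting error, and the wild-types by 17.9%.

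Enpp6, a choline-specific phosphodiesterase and marker of newly forming oligodendrocytes, was higher in both mutants. It had 181 in wild-type 11, 122 in wild-type 73, 255 in mutant 38 and 197 in mutant 39. The nearest libraries, mutant 39 and wild-type 11, were 8.67% apart, less than the spread within either group (27.5% in wild-type and 18.3% in mutant, as coefficients of variation). The log2 fold change came to 0.59 ± 0.24 (SE, 2 libraries per group; 95% interval 0.02 to 1.16), with an unadjusted limma p of 0.0447 and an adjusted p of 0.989. The p of Enpp6 in the authors' deposited table was 0.0684, on the other side of 0.05.

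**Figure D3:**
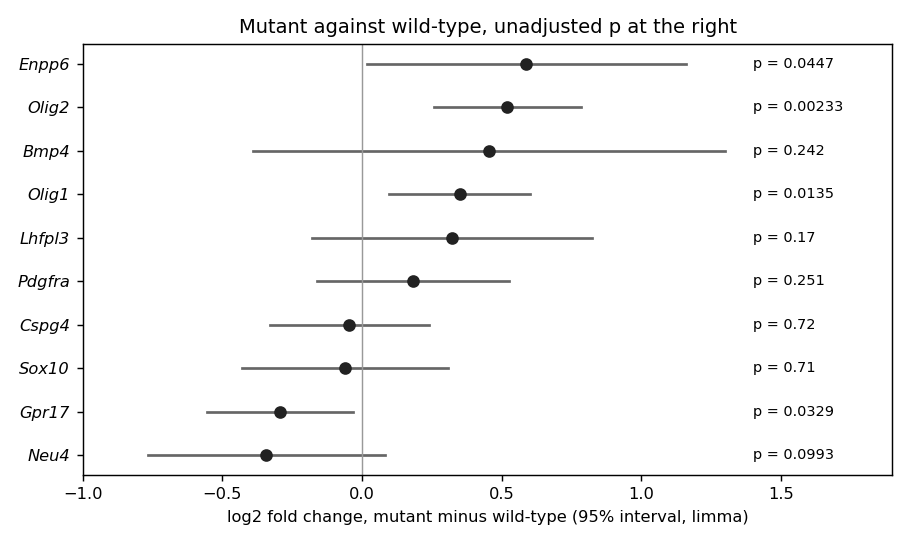
Log2 fold change of each gene, mutant minus wild-type, with its 95% interval from limma and its unadjusted p. The intervals of Olig2 (0.26 to 0.78), Olig1, Enpp6 and Gpr17 do not hold 0, and the other 6 do.

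Stage markers were also set against each other within a library, on values already given above. The log2 ratio of Enpp6 to Gpr17 was -2.78 in wild-type 11, -3.53 in wild-type 73, -2.04 in mutant 38 and -2.50 in mutant 39. That of Gpr17 to Pdgfra was -0.07 in wild-type 11, 0.35 in wild-type 73, -0.55 in mutant 38 and -0.12 in mutant 39. The first was higher and the second lower in both mutants, by 0.88 and -0.48 on average. The log2 ratio of Olig2 to Gpr17 differed by 0.81, from -1.35 and -1.48 to -0.52 and -0.69. The two-sided exact permutation p was 0.333 for each, the floor of the design. Since the groups of Enpp6, Olig2 and Gpr17 do not overlap, the ratios over Gpr17 were fixed in direction and p and add nothing. All ratios were chosen after the values had been seen.

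The 10 genes were also compared within each group, between the library rich in choroid plexus markers and the other. The choroid-rich library was the higher one in both groups for 6 of them (Pdgfra, Olig1, Sox10, Neu4, Bmp4 and Enpp6), against 29.9% of tested genes. It was the lower one in both for 1 (Gpr17), against 28.5%, and the groups differed in this for 3. These counts describe 2 pairs of libraries, and the part of choroid plexus RNA in the levels was not tested. Within the choroid-poor pair, mutant 39 less wild-type 73, the log2 difference was 0.45 for Olig2, 0.31 for Olig1, 0.68 for Enpp6, -0.34 for Gpr17 and -0.34 for Neu4. Within the choroid-rich pair, mutant 38 less wild-type 11, Olig2 had 0.59, Olig1 0.39, Enpp6 0.49, Gpr17 -0.25 and Neu4 -0.35. Since the groups of these genes do not overlap, the shared direction follows and adds nothing. Lhfpl3 had -0.11 in the choroid-poor and 0.76 in the choroid-rich pair, and Bmp4 0.23 and 0.68.

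Of the thalamic markers 3 of 8 were higher in both mutants, with a median log2 fold change of 0.76 over the list. Of the hippocampal neuron markers, Fibcd1 and C1ql2 were lower and Man1a higher. The other 7 overlapped, among them Wfs1 (0.04), Spink8 (0.01) and Prox1 (-0.05). Wfs1 had 1631 in wild-type 11, 1786 in wild-type 73, 1069 in mutant 38 and 2885 in mutant 39. Spink8 had 279, 365, 268 and 386 in the same order. For Wfs1 and Spink8, mutant 38 lay below both wild-types and mutant 39 above both, so their small fold changes average mutants on either side. Over all tested genes 16.8% were higher and 16.5% lower in both mutants. The part of thalamic RNA, or of a different share of hippocampal subfields, in the levels of Olig1, Olig2 and Enpp6 was not tested. Olig2 is also known in some astrocytes. The 8 astrocyte markers summed to between 111116 and 121201 over the libraries, with 2 higher and 0 lower in both mutants. Slc1a2 made up most of each of these sums, which therefore mostly follow that gene. The part of astrocytes in the level of Olig2 was not tested either.

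Leaving out single libraries changed the sizes of several estimates, as the plot with 1 library left out shows. Olig2 kept 0.48 (without mutant 38) to 0.56 (without mutant 39), with an unadjusted p between 0.00421 and 0.0261. Olig1 ran from 0.26 to 0.44, and its unadjusted limma p was 0.125 without mutant 38. Gpr17 ran from -0.39 without wild-type 11 to -0.20 without wild-type 73, where its unadjusted limma p was 0.141. That p was 0.170 when mutant 38 was left out and 0.0739 when mutant 39 was. Enpp6 reached 0.87 when wild-type 11 was left out and 0.78 when mutant 39 was. It was 0.40 without mutant 38, where its unadjusted limma p was 0.207, and 0.31 without wild-type 73, where that p was 0.214. Without mutant 38, Pdgfra had 0.01, Lhfpl3 0.07 and Bmp4 0.06, and without mutant 39 they had 0.35, 0.58 and 0.86. Without wild-type 11, Pdgfra had 0.30, Lhfpl3 0.14 and Bmp4 0.64, and without wild-type 73 they had 0.07, 0.50 and 0.28.

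**Figure D4:**
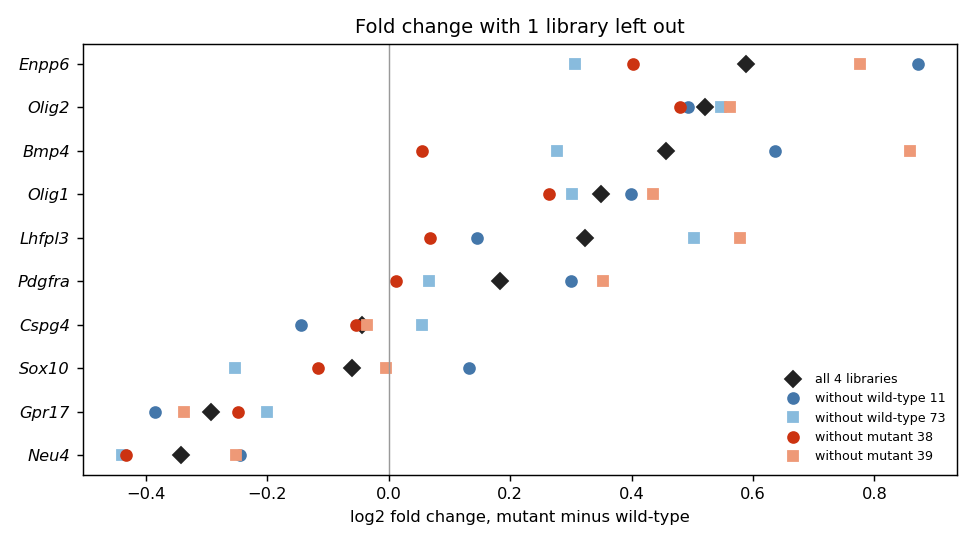
Log2 fold change of each gene with all 4 libraries (diamond) and with each library left out. Olig2 stays between 0.48 and 0.56, Enpp6 spreads from 0.31 to 0.87, and Cspg4 and Sox10 lie on either side of 0.

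Genes of other lists named for the lineage are set beside the 10. These are levels in whole tissue, and the part of other cells in them was not tested. Of 15 further precursor surface and matrix genes, 2 were higher and 3 lower in both mutants, against 16.8% and 16.5% of all tested genes. Of these 15, 0 had an unadjusted limma p below 0.05. Their median log2 fold change was -0.0039, beside 0.0067 over all genes tested. Vcan, the versican proteoglycan, had 0.18 ± 0.11, C1ql1, a secreted complement-like protein, -0.29 ± 0.19, and Gria3, a subunit of AMPA glutamate receptors, 0.19 ± 0.10 (SE, n = 2 per group).

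Of 18 other transcription factors of the lineage, 4 were higher and 4 lower in both mutants, with a median of 0.09. Over all tested genes these shares were 16.8% and 16.5%. The higher ones were Sox6 (log2 fold change 0.12), Nkx6-2 (0.27), Zfp536 (0.19) and Id2 (0.15). Sox11 and Hes5 were among the lower ones. Sox11, also a factor of immature neurons, had 1026 in wild-type 11, 1122 in wild-type 73, 894 in mutant 38 and 886 in mutant 39, a log2 fold change of -0.27 ± 0.10 (SE, n = 2 per group). Hes5, a Notch target, had -0.70 ± 0.30 (SE, n = 2 per group). The limma adjusted p was 0.989 for each.

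Of 18 genes of committed and newly formed oligodendrocytes, 8 were higher and 2 lower in both mutants, with a median of 0.11. Over all tested genes 16.8% were higher and 16.5% lower in both mutants. The long non-coding RNA 9630013A20Rik, enriched in newly formed cells, had 104 in wild-type 11, 106 in wild-type 73, 179 in mutant 38 and 134 in mutant 39 (log2 fold change 0.56 ± 0.21 SE, n = 2 per group). Bcas1, a marker of early myelinating cells, had 0.39 ± 0.17, and Gpr37, a receptor of maturing cells, 0.27 ± 0.15. The 2 lower in both mutants were Rras2 (-0.13 ± 0.12) and Samd4b (-0.14 ± 0.10). Of 17 myelin genes, 12 were higher and 0 lower in both mutants, with a median of 0.43. At an unadjusted limma p below 0.05, 8 of the 17 were higher, against 2.18% of all tested genes. The summed level of the myelin genes was 105364 in wild-type 11, 74677 in wild-type 73, 127212 in mutant 38 and 112627 in mutant 39. Mal, a proteolipid of compact myelin, had 0.45 ± 0.13 (SE, n = 2 per group). The myelin median was 0.20 without wild-type 73 and 0.64 without wild-type 11.

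**Figure D5:**
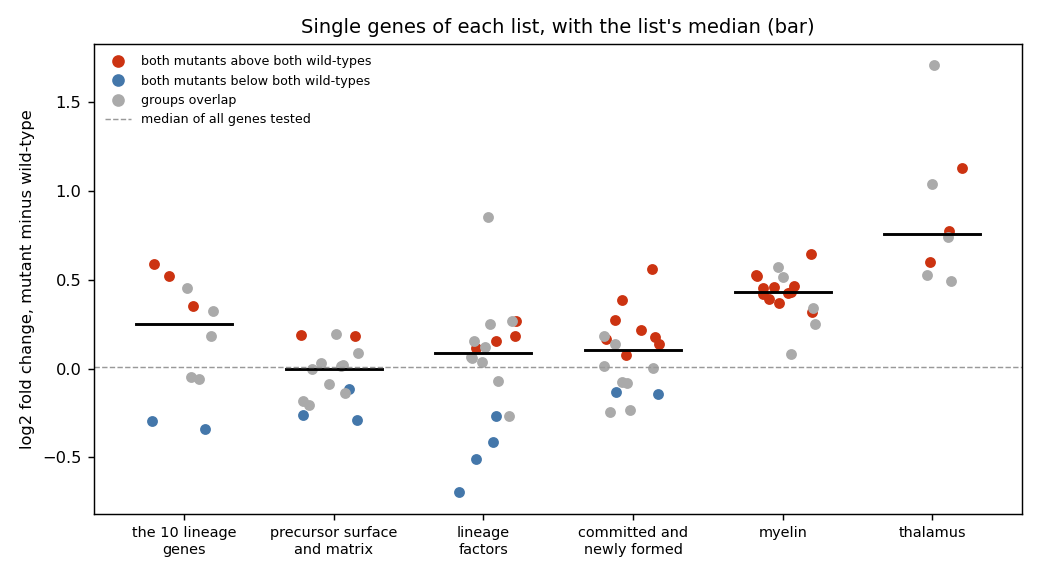
Log2 fold change of single genes, mutant minus wild-type, for the 10 genes, 4 other lists of the lineage and thalamic markers, with a bar at each list's median. Medians run from -0.0039 for precursor surface and matrix genes to 0.43 for myelin and 0.76 for thalamus, and the 10 genes hold 3 points above and 2 below with groups that do not overlap.

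Ligands and receptors around Pdgfra and Bmp4 held genes that went in either direction, and no list was tested as a group. Over all tested genes 16.8% were higher and 16.5% lower in both mutants. Of 5 genes for platelet-derived growth factors and the sister receptor, Pdgfc was higher (0.50 ± 0.24) and Pdgfb lower (-0.20 ± 0.12) in both mutants. Pdgfa, the main ligand for precursors, had -0.10 ± 0.15 (SE, n = 2 per group), with overlapping groups. Of 17 other genes of the bone morphogenetic protein pathway, 6 were higher and 3 lower in both mutants, with a median of -0.06. Nog, which encodes the antagonist noggin, had -0.45 ± 0.26, Chrd, which encodes chordin, -0.20 ± 0.12, and the inhibitory Smad7 0.20 ± 0.11 (SE, n = 2 per group). Among 10 proliferation genes, 0 were higher and 0 lower in both mutants, with a median of -0.09.

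Genes whose values over the 4 libraries were most like those of Olig2 were Spsb1, Adap2 and Egfl8, among 11673 genes with a mean of at least 100. Their centred log2 values differed from those of Olig2 by a root mean square of 0.021, 0.023 and 0.029. The nearest to Gpr17 were Taf4a, Prpf3 and Ints10, at 0.0084, 0.0093 and 0.011. With 4 libraries such likeness is a description only.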

How the data were processed

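Ribosome-depleted total RNA of 4 hippocampal samples was made into strand-marking (dUTP) single-end libraries, per the labels' protocols. GSNAP, DESeq2 and the mouse build mm9 are named in the submitters' processing notes, without versions or roles, and the counting tool is not given in the sources used here. The authors deposited signal values, aligned bases per transcript record divided by 1 scaling factor per library, as the values show: 100% were whole multiples of a step, within 0.05 of a step, with low values at 42, 84 and 126 steps. They are not counts and not per length. The deposited p-value column is the authors' own and may or may not be adjusted.

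Values were divided by 42. Genes that reached 1 read equivalent in at least 2 libraries entered a limma 3.58.1 fit (R 4.3.3) of log2 values with a pseudocount of 1 (variance trend, two-sided, Benjamini-Hochberg adjustment over 18127 genes at 0.05). Fold changes on that scale understate those of scarce genes. The script was first tested on simulated data. Python 3.11.15 and matplotlib 3.10.9 drew the plots. The 10 genes and all lists were chosen with earlier results of these data known. Genes named are the 10, the 3 of each other list with the smallest p, and the 3 nearest to Olig2 and to Gpr17 (not all are printed). Some others of the lists are named to show genes that overlapped or went the other way. Neighbours of Olig2 and ratios were picked after seeing values. The alternatives were 2 pseudocounts, 2 filters, 2 scalings, 2 variance priors, summed records, a choroid plexus covariate and each library left out.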

Additional observations from a re-analysis of the deposited data

How the results depend on the processing

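The number of genes that passed over the whole table was 1, and was 0 without a variance trend, 12 with a robust variance prior and 80 with a covariate for the choroid plexus level, which leaves 1 residual degree of freedom. With single libraries left out it lay between 1 (without wild-type 73) and 37 (without wild-type 11). In each of these fits 0 of the 10 lineage genes passed. The median log2 fold change of the 10 was 0.25, and ran from 0.034 without mutant 38 to 0.39 without mutant 39. That of the lineage transcription factors, 0.09, was 0.015 without mutant 38 and 0.12 without mutant 39. Cspg4 ran from -0.14 without wild-type 11 to 0.055 without wild-type 73, and Sox10 from -0.25 without wild-type 73 to 0.13 without wild-type 11, so both changed sign. The adjusted p of Olig2 lay between 0.123 and 1.00 over 14 alternatives, its log2 fold change between 0.48 and 0.56, and its unadjusted limma p was below 0.05 in all 14. That count was 12 for Olig1, 10 for Gpr17 and 8 for Enpp6. Both rescalings left the direction of each of the 10 genes as it was. Fits without 1 library assume that a lone sample varies like the other group. No paired analysis was possible because the groups share no replicate number. The causes of these changes were not tested. The counting error was largest for Bmp4, at up to 21.8% of its level, then Enpp6 (11.3%) and Neu4 (9.53%), and for Bmp4 in mutant and Enpp6 in both groups the libraries differed by more than that.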
